A study of Mus musculus with 6 samples.

Results

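The 10 genes described here encode S100 alarmins, surface and secreted proteins of mature neutrophils, and proteins of neutrophil granules: S100a8, S100a9, Retnlg, Clec4d, Ly6g, Camp, Ngp, Ltf, Elane and Mpo. Their probes were found by gene name in the array files. Of the 10 genes 9 had a probe, with 10 of the 41174 probes of the array, and no probe carried the name Ly6g, a surface antigen of mouse neutrophils. Of the 9 genes 8 were well above background on at least 2 of the 6 arrays and so stood among the 19626 genes tested, and Elane did not. The genes were chosen by their signals on these same arrays in the injury and genotype comparisons, so their values are given as a description, with no test.

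Kidney RNA was hybridised to 6 single-colour arrays. The groups were a Gpr97 deficiency kidney after ischaemia/reperfusion injury (1 array), a Gpr97 deficiency kidney after a sham operation (1 array), wild type kidneys after the same injury (2 arrays) and wild type kidneys after a sham operation (2 arrays). Gpr97 is the older name of Adgrg3, an adhesion G protein-coupled receptor gene, and in this injury the renal blood supply is stopped and then restored. The sources used here give no strain, age, duration of ischaemia, time of collection or design of the deficient allele, and nothing in the labels says that arrays of a group came from separate animals. The question examined is how injury and Gpr97 deficiency bear on these neutrophil genes in whole kidney.

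Neutrophils make their granules in sequence while they mature in the bone marrow. Primary granules, with myeloperoxidase and serine proteases, form in promyelocytes, and specific granules, with lactoferrin and cathelicidin, form in myelocytes and metamyelocytes. Transcripts of granule proteins are mostly lost before the cell enters the blood. Transcripts of the S100 proteins persist in circulating neutrophils, where S100A8 and S100A9 form a calcium-binding heterodimer (calprotectin) that is abundant in the cytosol and acts as an alarmin once released. After renal ischaemia neutrophils enter the kidney early. In whole tissue a difference in the number of such cells and a difference in RNA per cell cannot be told apart.

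The probe sequences that separate the alarmin from the granule signals are shown because 60 bases of each gene stand for it here, and because Ltf has a pair of probes that did not give the same values. They are written 5′ to 3′ in lower case, with positions in mm9. The S100a8 probe lies in the coding stretch of a calcium-binding loop, and the Camp probe lies in the stretch that codes for the mature cathelicidin peptide. The span of the Ngp probe and of Ltf probe A_51_P188141 in mm9 is longer than the probe, so both cross an exon junction.
S100a8 A_51_P256827 (chr3:90473778-90473837, + strand): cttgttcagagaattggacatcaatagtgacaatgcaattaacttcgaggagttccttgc
Camp A_51_P180423 (chr9:109749992-109750051, - strand): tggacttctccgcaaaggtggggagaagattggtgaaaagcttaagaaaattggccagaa
Ngp A_52_P429450 (chr9:110324266-110324814, + strand): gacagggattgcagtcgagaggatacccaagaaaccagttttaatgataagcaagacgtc
Ltf A_52_P15388 (chr9:110942873-110942932, + strand): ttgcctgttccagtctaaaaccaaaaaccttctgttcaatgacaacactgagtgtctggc
Ltf A_51_P188141 (chr9:110938264-110941314, + strand): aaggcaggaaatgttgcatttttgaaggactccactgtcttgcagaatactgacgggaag

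Signals are log2 values of the scanner's processed signal, scaled by the 75th percentile of each array, so that 1 unit is a 2-fold difference, and levels of different probes are not comparable with each other. Well above background means that the scanner software marked the probe so. Between 63.0% and 71.1% of probes were well above background on an array, and 0 spots were saturated. The 10 kidney markers, among them Slc34a1 of the proximal tubule and Slc12a1 of the thick ascending limb, were well above background on all 6 arrays. Adgrg3 (NM_173036, probe A_51_P247694) read -5.75 on the Gpr97-deficient injured array, where it was not well above background. On the Gpr97-deficient sham array its signal was -5.38. It read 1.06 and 1.18 on the wild-type injured arrays and 0.20 and 0.02 on the wild-type sham arrays, so both deficient kidneys lay far below every wild-type kidney. Slide 1 carried wild-type injured array 2 and wild-type sham array 1, and slide 2 the remaining 4 arrays. Wild-type injured array 1 went against its label of male: none of the 4 Y-linked genes examined was well above background there, and Xist, which coats the inactive X chromosome of females, read 4.05 on it and at most -5.45 elsewhere. Values without this array are given beside the injury and genotype differences that moved most when it was left out, an alternative that for the wider gene lists was added after the data were seen.

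**Figure D1:**
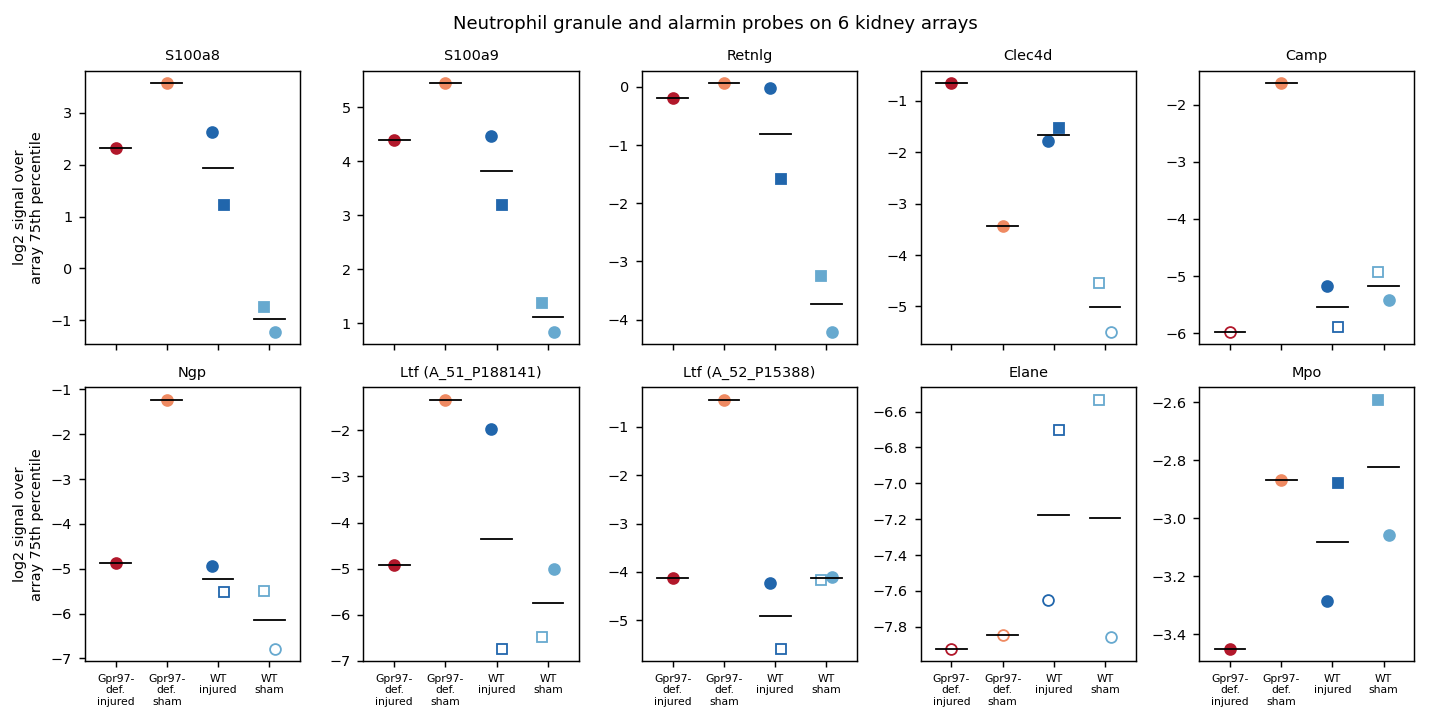
Log2 signal of the 10 probes, scaled by each array's 75th percentile, with 1 panel per probe and its own vertical axis. Each point is 1 array, circles are slide 2 and squares slide 1, open symbols are not well above background, and the line is the group mean. S100a8, S100a9 and Retnlg are lowest on both wild-type sham arrays, while Camp, Ngp and Ltf stand out on the Gpr97-deficient sham array. Ltf probe A_51_P188141 is also high on wild-type injured array 1.

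S100a8 and S100a9 were high on 4 arrays and low on the wild-type sham arrays. S100a8 (NM_013650) read 2.32 on the Gpr97-deficient injured array, 3.57 on the Gpr97-deficient array after sham surgery, 2.63 and 1.23 on the wild-type injured arrays, and -0.74 and -1.22 on the wild-type sham arrays. Its partner S100a9 (NM_009114) read 4.39 on the Gpr97-deficient injured array, 5.44 on the Gpr97-deficient array after sham surgery, 4.46 and 3.19 on the wild-type injured arrays, and 1.38 and 0.84 on the wild-type sham arrays. For both genes the highest array was the Gpr97-deficient sham kidney, and the wild-type injured and wild-type sham arrays did not overlap. Over the 6 arrays the Pearson correlation of S100a8 with S100a9 was 0.999, on arrays that share platform and tissue.

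Retnlg encodes resistin-like gamma, a secreted protein found in mouse neutrophils and their precursors. It read -0.20 on the Gpr97-deficient injured array, 0.07 on the Gpr97-deficient array after sham surgery, -0.02 and -1.59 on the wild-type injured arrays, and -3.25 and -4.21 on the wild-type sham arrays. It was thus low only on the wild-type sham arrays, and its correlation with S100a8 was 0.981 over the 6 arrays.

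Clec4d encodes a C-type lectin receptor of neutrophils and monocytes. It read -0.65 on the Gpr97-deficient injured array and -3.44 on the sham array of that genotype. Its signals were -1.79 and -1.54 on the wild-type injured arrays. On the wild-type sham arrays it read -4.54 and -5.49 and was not well above background. Unlike the alarmins, Clec4d was higher on every injured array than on every sham array, a pattern that 9.69% of the 19617 genes with a value on every array had, and at least 2-fold higher in all 3 injured and sham pairs of a slide, as were 1.16% of genes. Its correlation with S100a8 was 0.68.

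In wild-type kidneys S100a8 averaged 1.93 ± 0.99 after injury and -0.98 ± 0.34 after sham surgery (SD, n = 2 each), a difference of 2.91 (SE 0.56), or 7.52-fold. S100a9 averaged 3.82 ± 0.90 after injury and 1.11 ± 0.38 after sham surgery (SD, n = 2 each), a difference of 2.71 (SE 0.53). Retnlg averaged -0.80 ± 1.11 after injury and -3.73 ± 0.68 after sham surgery (SD, n = 2 each), a difference of 2.92 (SE 0.68). These 3 differences exceeded the SD within either group. Without wild-type injured array 1 they were 2.21 for S100a8, 2.08 for S100a9 and 2.14 for Retnlg. Clec4d was at least 10.02-fold higher after injury, as the mean of the injured arrays against the detection limit of the sham arrays. With normexp background correction its log2 difference was 1.85, which is below that bound. Of the 8 genes tested, these 4 were at least 2-fold higher in both wild-type pairs, each pair being an injured and a sham array on 1 slide, against 1.93% of all genes. The same 4 genes were at least 2-fold higher in the pair that leaves out wild-type injured array 1, a rule that 6.16% of all genes met. Limma called 0 of the 19626 genes between wild-type injured and sham kidneys at an adjusted p under 0.05 (633 higher and 623 lower at an unadjusted p under 0.05), so no member was called.

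The size of the wild-type step differed between the slides. On slide 2, with wild-type injured array 1, the injured minus sham difference was 3.85 for S100a8, 3.62 for S100a9, 4.19 for Retnlg and 3.71 for Clec4d. On slide 1, with wild-type injured array 2, it was 1.97 for S100a8, 1.81 for S100a9, 1.66 for Retnlg and 3.01 for Clec4d. Injury over both genotypes, fitted with an additive model, also gave 0 calls (1092 higher and 1317 lower at an unadjusted p under 0.05). The direction of the 4 genes was shared by the slides, while Retnlg differed most between the slides.

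In the Gpr97-deficient pair, which has 1 array per condition and no replicate check, the alarmins did not show that step. S100a8 was 1.25 lower on the injured than on the sham array (log2 difference -1.25), S100a9 1.05 lower (-1.05) and Retnlg 0.26 lower (-0.26). Clec4d was 2.79 higher, or 6.92-fold, as a difference between arrays on which it was well above background. S100a8, S100a9 and Retnlg were 3 of 58 genes (0.296% of the 19617) that were at least 2-fold higher in both wild-type pairs and lower in the deficient pair. S100a8 and S100a9 were 2 of 18 genes (0.0918%) that were also at least 2-fold lower in the deficient pair. These counts describe values that chose the members. Limma called 0 of 19625 genes in this pair, with 537 at an unadjusted p under 0.05.

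**Figure D2:**
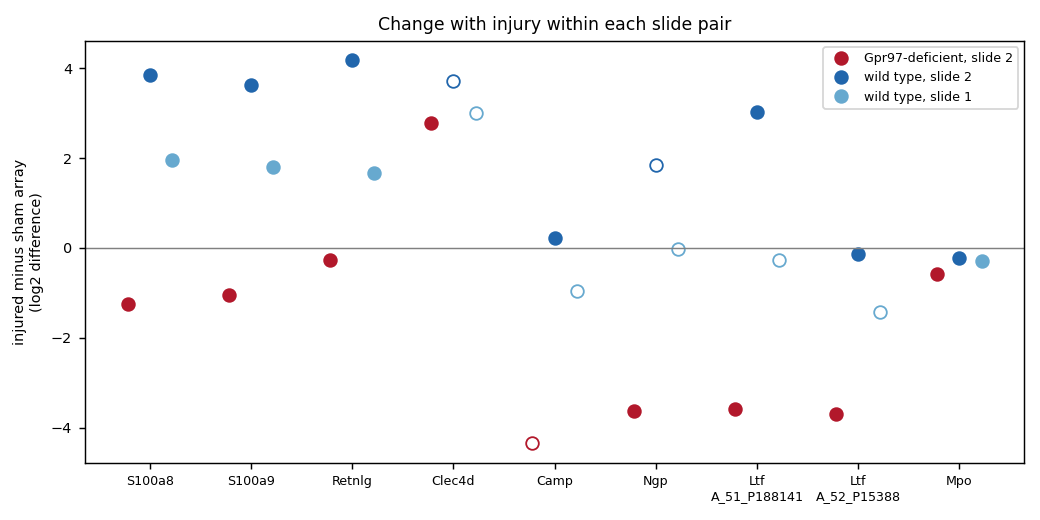
Log2 difference of an injured minus a sham array on the same slide for 9 probes, with 1 point for each pair of arrays. Open points involve an array on which the probe was not well above background. The wild-type points of S100a8, S100a9 and Retnlg lie between 1.66 and 4.19 and the Gpr97-deficient points below 0, whereas all 3 points of Clec4d lie above 2.

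Both arrays of the deficient pair were set against wild type of the same condition. The injured array read 0.40 above the wild-type injured mean for S100a8 (SE 0.69), 0.57 above it for S100a9 (SE 0.65), 0.61 above it for Retnlg (SE 0.83) and 1.01 above it for Clec4d (SE 0.50). For the first 3 genes the difference was smaller than its SE, and its size depended on the wild-type array. Against wild-type injured array 1 alone, on the same slide, S100a8 differed by -0.31, S100a9 by -0.07 and Retnlg by -0.18. With that array left out the differences were 1.10, 1.20 and 1.39. They then set 1 injured array against 1, so no spread between injured kidneys was measured. The sham array read 4.56 above the wild-type sham mean for S100a8 (SE 0.69), or 23.5-fold, 4.33 above it for S100a9 (SE 0.65) and 3.79 above it for Retnlg (SE 0.83). With normexp background correction these were 4.12 for S100a8, 4.28 for S100a9 and 2.56 for Retnlg. Clec4d was at least 2.92-fold higher on that array than on the wild-type sham arrays, where it was not well above background, and its difference was 0.27 on the log2 scale with normexp. The comparisons share arrays: the deficient sham array enters both its own injury difference and the genotype difference after sham surgery, and the wild-type sham arrays enter that genotype difference and the wild-type injury difference. Limma called 0 of 19625 genes between the genotypes after injury (138 higher and 145 lower at an unadjusted p under 0.05).

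The granule genes Camp, Ngp and Ltf had a separate pattern, with 1 high array, except that Ltf probe A_51_P188141 was also high on wild-type injured array 1. Camp encodes the cathelicidin antimicrobial peptide of specific granules. It read -5.97 on the Gpr97-deficient injured array (not well above background), -1.62 on the Gpr97-deficient array after sham surgery, -5.18 and -5.90 on the wild-type injured arrays, and -4.94 and -5.41 on the wild-type sham arrays. The values of -5.90 and -4.94, both on slide 1, were not well above background. Apart from the deficient sham array, all values of Camp lay near the detection limit, which was -4.48 and -4.62 on the slide 1 arrays and between -5.87 and -5.49 on the slide 2 arrays.

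Ngp encodes neutrophilic granule protein, a cathelin-related protein of mouse neutrophils. It read -4.87 on the Gpr97-deficient injured array, -1.23 on the Gpr97-deficient array after sham surgery, -4.93 and -5.52 on the wild-type injured arrays, and -5.50 and -6.78 on the wild-type sham arrays. The last 3 values were not well above background. The deficient sham array again stood far above the other 5.

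Ltf encodes lactoferrin, an iron-binding protein of specific granules. Probe A_52_P15388 read -4.13 on the Gpr97-deficient injured array, -0.44 on the Gpr97-deficient array after sham surgery, -4.23 and -5.58 on the wild-type injured arrays, and -4.17 and -4.10 on the wild-type sham arrays. Probe A_51_P188141 read -4.92 on the Gpr97-deficient injured array, -1.34 on the Gpr97-deficient array after sham surgery, -1.98 and -6.73 on the wild-type injured arrays, and -6.47 and -5.00 on the wild-type sham arrays. Wild-type injured array 2 and wild-type sham array 1 were not well above background with either probe. Both probes were highest on the deficient sham array. They disagreed on wild-type injured array 1, where A_51_P188141 was close to its highest value and A_52_P15388 was not, so the wild-type injury difference was 1.38 (SE 1.78) with A_51_P188141 and -0.77 (SE 0.52) with A_52_P15388.

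On the Gpr97-deficient sham array Camp was 3.55 above the wild-type sham mean (SE 0.46), or 11.7-fold. Ltf was 3.69 above it with probe A_52_P15388 (SE 0.64), or 12.9-fold, and 4.40 with the other probe (SE 2.18). Wild-type sham array 1 was not well above background for Camp and both Ltf probes, and wild-type sham array 2 was. Ngp was at least 14.3-fold higher. With normexp background correction the log2 differences were smaller, at 1.55 for Camp, 1.77 for Ltf and 1.99 for Ngp. Camp, Ngp and Ltf (A_52_P15388) were at least 2-fold above each of the other 5 arrays there, as were 0.571% of all genes. Ltf probe A_51_P188141 did not meet this rule, with -1.34 there and -1.98 on wild-type injured array 1. Of the 8 genes tested, 6 had their highest signal on this array, against 14.4% of all genes, with Clec4d and Mpo as the exceptions. At least 16-fold above wild-type sham array 2, on the same slide, were 4 of the 8 genes (S100a8, S100a9, Retnlg and Ngp) and 0.158% of all genes. Ngp was not well above background on the wild-type array of that comparison. Against wild-type sham array 1, an alternative added after the data were seen, Retnlg no longer met this threshold. Limma called 0 of 19626 genes between the genotypes after sham surgery, with 238 higher and 184 lower at an unadjusted p under 0.05.

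With injury none of Camp, Ngp and Ltf was higher in both wild-type pairs. Camp differed by -0.37 (SE 0.38), by 0.23 on slide 2 and by -0.96 on slide 1, and with normexp background correction the sign turned to 1.06. Ltf (A_52_P15388) was lower in both pairs, with differences of -0.13 on slide 2 and -1.42 on slide 1, where it was not well above background on either array. Probe A_51_P188141 of Ltf differed by 3.02 on slide 2 and by -0.26 on slide 1. The wild-type difference of Ltf as a gene, -0.77, turned to 1.71 with normexp and to 0.30 with the mean of the probes, so its direction was not settled. Ngp differed by 0.92 (SE 0.54), and it was above background on 1 of the 4 wild-type arrays. In the Gpr97-deficient pair Camp was at least 19.03-fold lower on the injured array, and Ngp and Ltf (A_52_P15388) differed by -3.63 and -3.69. Over the 12 alternatives tried, the log2 difference of Camp in that pair lay between -4.35 and -2.09. After injury the genotypes differed less: Ngp by 0.36 (SE 0.66), with a sign that turned to -1.35 with normexp, and Ltf (A_52_P15388) by 0.78 (SE 0.64). For Ltf as a gene, with its brightest probe picked anew under normexp, the difference was -1.97. Without wild-type injured array 1 the values were 0.66 for Ngp and 1.45 for Ltf (A_52_P15388). The other Ltf probe, A_51_P188141, differed the other way, by -0.56 (SE 2.18). Camp was at least 1.26-fold lower in the deficient kidney, where it was not well above background, and its sign turned to 0.10 with quantile normalization and with the deposited values.

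The primary granule genes did not share the pattern. Elane, neutrophil elastase, was well above background on 0 of 6 arrays, so no level can be given. Mpo, myeloperoxidase, was well above background on all 6 and read -3.45 on the Gpr97-deficient injured array, -2.87 on the Gpr97-deficient array after sham surgery, -3.29 and -2.88 on the wild-type injured arrays, and -2.59 and -3.06 on the wild-type sham arrays. Its groups overlapped, and in wild-type injury it differed by -0.23 on slide 2 and -0.29 on slide 1. The genotype difference of Mpo after sham surgery was -0.04 (SE 0.38), where Camp, Ngp and Ltf were high.

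Over the 6 arrays Camp correlated with Ltf at 0.954 and with Ngp at 0.887. S100a8 correlated with Camp at 0.474 and with Ltf at 0.502, but with Ngp at 0.793, above its correlation with Clec4d. By these values Ngp lay between the alarmins and the other granule genes. Ngp and Camp were each well above background on only 3 of the 6 arrays, so their correlations rest partly on signals near background. These values rest on 6 arrays of 1 tissue. With Ltf read from probe A_52_P15388, the alarmin genes and Camp, Ngp and Ltf thus shared 1 high array and differed on the injured arrays.

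The genes compared were 1492 with a range of at least 2 log2 units, each well above background on at least 4 arrays. Those whose signals were most like the mean of S100a8, S100a9, Retnlg and Clec4d over the 6 arrays were Cstdc4 (Pearson r 0.985), Stfa2 (0.977), Chil3 (0.974), Stfa2l1 (0.968), Wfdc21 (0.961), Aoc1 (0.937), Stfa1 (0.931) and Chil4 (0.926). Cstdc4 and the Stfa genes belong to the stefin A family of cysteine protease inhibitors, and Chil3 and Chil4 encode chitinase-like proteins. Near-identical copies in these families may share probe signal. Most like the mean of Camp, Ngp and Ltf were Ticrr (0.964), H1f1 (0.949), Lipf (0.945), Fanci (0.940), Tcf19 (0.933), Kifc1 (0.922), Stfa3 (0.915) and Racgap1 (0.910). Ticrr and Fanci act in DNA replication and repair, and Kifc1 and Racgap1 in mitosis and cytokinesis. All 8 of these were highest on the Gpr97-deficient sham array, which follows from how they were picked and is not a separate result. The mean of Camp, Ngp and Ltf, to which they were matched, was high on that array alone.

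Other genes of mature neutrophils were set beside the members. In wild-type kidneys 19 of 23 were higher after injury and 4 lower, with a median difference of 1.06 against -0.05 over all genes, and limma called 0 of them (12 higher and 1 lower at an unadjusted p under 0.05). In the deficient pair 12 were higher and 11 lower, with a median of 0.06 that turned to -0.06 under normexp. On the deficient sham array 18 of 23 lay above the wild-type sham mean, with a median of 1.53 that was 0.16 with normexp (0 called, 9 higher at an unadjusted p under 0.05). Il1r2, the decoy receptor of interleukin 1, was at least 3.14-fold higher after injury in wild type. Arg2, a mitochondrial arginase that kidney tubules also express, was 4.23 higher after injury in wild type (SE 0.72) and 3.16 higher in the deficient pair. The list as a whole was near balance in the deficient pair, while those 2 genes were higher in it.

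The other 15 genes of specific granules and maturing neutrophils had a median of -0.11 in wild-type injury, a sign that turned to 0.98 with normexp, to 0.00 or 0.01 with quantile normalization or the deposited values, and to 0.53 without wild-type injured array 1. In the deficient pair the median was -0.20, and on the deficient sham array it was 0.62 (0.28 with normexp). Chil3 was, like the alarmins, low only on the wild-type sham arrays: it read 0.81 on the Gpr97-deficient injured array, 0.50 on the Gpr97-deficient array after sham surgery, 0.39 and 0.46 on the wild-type injured arrays, and -3.11 and -3.61 on the wild-type sham arrays. Unlike S100a8 and S100a9, it was highest on the deficient injured array. Lcn2, which encodes lipocalin 2 and is made by injured tubules as well as by neutrophils, was 5.71 higher after injury in wild type (SE 1.69) and 6.23 higher in the deficient pair. Without wild-type injured array 1 the wild-type difference of Lcn2 was 6.72. Of the other primary granule and precursor genes 7 of 13 were tested, with medians of -0.09 in wild-type injury (0.58 with normexp), -0.19 in the deficient pair and 0.11 on the deficient sham array. Limma called 0 genes of either list in these comparisons (specific granule genes at an unadjusted p under 0.05: 4 higher and 1 lower in wild-type injury and on the deficient sham array alike).

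Recruitment signals had another pattern. Of 11 such genes 10 were higher after injury in wild type, with a median of 1.20, and 10 in the deficient pair, with a median of 1.30 (0.20 with normexp, against 1.15 in wild type), and limma called 0 (2 higher at an unadjusted p under 0.05 in each). Cxcl1, a chemokine that binds the neutrophil receptor CXCR2, was 4.47 higher after injury in wild type (SE 1.13), or 5.92 without wild-type injured array 1, and 4.51 higher in the deficient pair. On the deficient sham array Cxcl1 differed from wild type by -0.53 (SE 1.39), less than the SE. The median of the list was -0.30 there, turning to 0.12 with quantile normalization and 0.11 with the deposited values.

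Of the receptors and adaptors that respond to S100A8 and S100A9, Cd14, a co-receptor of Tlr4, was 2.29 higher after injury in wild type (SE 0.45) and 2.15 higher in the deficient pair. The 9 tested genes of this list had medians of 0.14 in wild-type injury (0.31 without wild-type injured array 1) and 0.27 in the deficient pair (0.12 with normexp). Of 12 other genes with S100 names, S100pbp among them, 10 were higher in wild-type injury, with a median of 0.56. Without wild-type injured array 1 this fell to 7, with a median of 0.45. In the deficient pair 6 were higher, with a median of 0.12 that turned to -0.01 with normexp. On the deficient sham array 11 lay above the wild-type sham mean, with a median of 0.45. Of this list S100a6 was 2.29 higher (SE 0.70) and S100a10 1.96 higher (SE 0.42) in wild-type injury. The 2 genes were 2.14 and 1.68 higher in the deficient pair. On the deficient sham array S100a6 lay 0.50 above the wild-type sham mean (SE 0.85) and S100a10 0.19 above it (SE 0.51). Limma called 0 genes of both lists, with 1 receptor gene and 5 S100 genes higher at an unadjusted p under 0.05 in wild type.

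**Figure D3:**
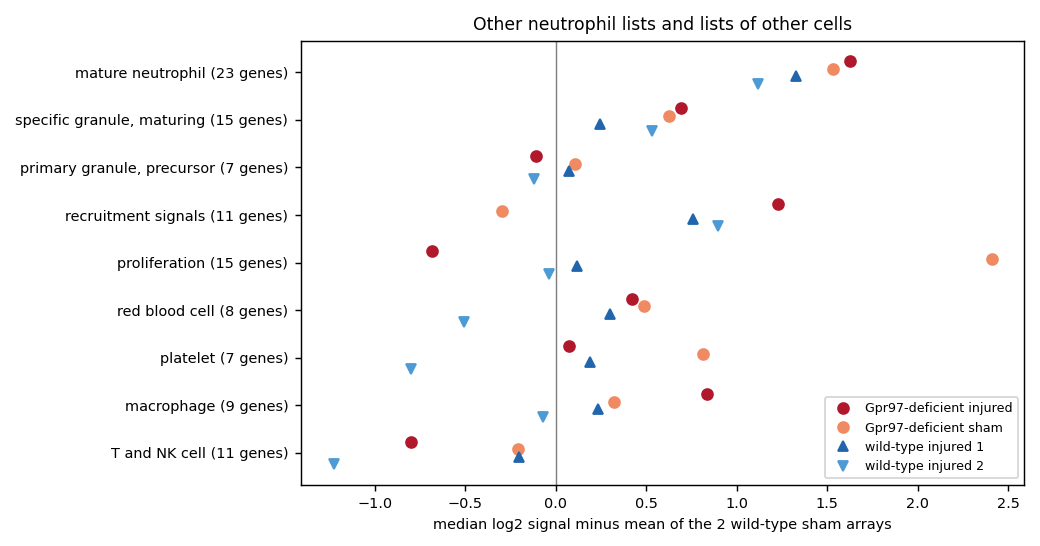
Median log2 signal of 9 gene lists on 4 arrays, each minus the mean of the 2 wild-type sham arrays, with the number of genes tested beside each list. Proliferation genes lie at -0.68 on the Gpr97-deficient injured array and reach 2.41 after sham surgery in that genotype, and recruitment signals lie below 0 on the deficient sham array, a sign that turned with quantile normalization and with the deposited values.

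Genes of other cells also stood apart on the Gpr97-deficient sham array. Of 15 proliferation genes 13 were above the wild-type sham mean there, with a median of 2.41 that was 1.29 with normexp (limma called 0, and 9 were higher at an unadjusted p under 0.05). Ccna2, a cyclin of S phase and mitosis, read -3.67 on the Gpr97-deficient injured array, 0.20 on the Gpr97-deficient array after sham surgery, -2.27 and -3.02 on the wild-type injured arrays, and -3.84 and -1.83 on the wild-type sham arrays. In the deficient pair 14 of 15 proliferation genes were lower on the injured array, with a median of -2.81 (-1.58 with normexp), and 12 were lower at an unadjusted p under 0.05. The summed signal of this list, in units of the array's 75th percentile, was 2.98 on the Gpr97-deficient injured array, 16.3 on the Gpr97-deficient array after sham surgery, 4.36 and 4.43 on the wild-type injured arrays, and 3.34 and 5.52 on the wild-type sham arrays.

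The summed signal of red blood cell genes was high on the same array, though not there alone. Over 8 of 16 genes it was 38.4 on the Gpr97-deficient injured array, 141 on the Gpr97-deficient array after sham surgery, 71.9 and 4.91 on the wild-type injured arrays, and 9.28 and 10.6 on the wild-type sham arrays. As a list the genes stood out less. On the deficient sham array 5 of the 8 were above the wild-type sham mean and 3 below, with a median of 0.49 (0.17 with normexp). The median on the deficient injured array was 0.42 above that mean. The defining genes Ahsp and Rhag were not above background on enough arrays to be tested. Hba-a1, an alpha globin, stood at 6.20 on the deficient sham array, with 5.18 on wild-type injured array 1. There Camp read -5.18, Ngp -4.93 and Ltf -4.23 with probe A_52_P15388. The other Ltf probe, A_51_P188141, went the other way: its -1.98 there was near its -1.34 in the deficient sham kidney. All 7 platelet genes tested were above the wild-type sham mean on the deficient sham array, with a median of 0.81 that was 0.06 with normexp, and Ppbp, a platelet chemokine, was 3.74 above it (SE 1.32). The part of proliferating, red blood or platelet cells in the levels of the members was not tested.

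The promoters of the 2 alarmins and of Ngp and Ltf are shown because the signals were alike within each set. Sequences are from RefSeq on GRCm38.p6 and run from 250 bases before to 50 bases after the annotated start. All 10 genes had an entry, Ly6g with 2 starts. Capitals mark matches, on either strand, to TTNNGNAA (a degenerate form of the C/EBP site), GAGGAA (the core of PU.1 sites) and TATAAA (the letters of a TATA box, at any position). C/EBP epsilon and PU.1 are transcription factors of the granulocyte lineage.
S100a8 (chr3:90668821-90669120, + strand): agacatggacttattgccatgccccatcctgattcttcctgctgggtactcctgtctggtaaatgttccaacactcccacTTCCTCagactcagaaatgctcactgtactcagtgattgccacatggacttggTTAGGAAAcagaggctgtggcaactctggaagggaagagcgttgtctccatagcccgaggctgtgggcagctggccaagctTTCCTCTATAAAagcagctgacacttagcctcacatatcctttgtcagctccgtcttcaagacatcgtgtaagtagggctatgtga
S100a9 (chr3:90695672-90695971, - strand): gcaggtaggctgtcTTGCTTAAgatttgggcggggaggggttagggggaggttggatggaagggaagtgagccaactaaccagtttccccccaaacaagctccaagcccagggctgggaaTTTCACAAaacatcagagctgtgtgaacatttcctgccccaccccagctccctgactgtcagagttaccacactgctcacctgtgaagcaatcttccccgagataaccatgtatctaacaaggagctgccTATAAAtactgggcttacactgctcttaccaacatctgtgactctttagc
Ngp (chr9:110419558-110419857, + strand): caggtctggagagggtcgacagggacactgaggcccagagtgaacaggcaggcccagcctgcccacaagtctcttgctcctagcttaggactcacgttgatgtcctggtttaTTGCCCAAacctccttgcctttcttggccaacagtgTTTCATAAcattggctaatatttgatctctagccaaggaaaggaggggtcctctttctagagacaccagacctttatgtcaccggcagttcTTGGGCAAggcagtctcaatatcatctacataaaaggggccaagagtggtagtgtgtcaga
Ltf (chr9:111019042-111019341, + strand): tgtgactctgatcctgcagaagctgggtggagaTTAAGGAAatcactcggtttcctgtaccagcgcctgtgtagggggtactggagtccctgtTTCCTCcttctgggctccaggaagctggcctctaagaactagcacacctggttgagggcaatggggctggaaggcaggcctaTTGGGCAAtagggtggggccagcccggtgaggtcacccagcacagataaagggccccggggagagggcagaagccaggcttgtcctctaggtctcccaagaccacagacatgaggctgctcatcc

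The C/EBP letters were found in the promoters of 7 of the 10 genes, against 40.7% of 32851 promoters. The PU.1 letters were in 6 of 10, against 28.3% of all, and the TATA letters in 3 of 10 (S100a8, S100a9 and Ly6g), against 13.6%. The TATA letters began at -30 in S100a8, at 1 in S100a9, and at -99 and -167 from the 2 starts of Ly6g. None of the 33 pairs of matches to different motifs overlapped in the members' promoters. S100a8 holds the C/EBP letters at -117 and the TATA letters at -30, while Ngp holds the C/EBP letters 3 times and Ltf 2 times without the TATA letters. Camp holds none of the 3 motifs in this window. A match is a run of letters and not a bound site.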

How the data were processed

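Kidney RNA of 6 mouse samples was measured on single-colour Cy3 arrays. The deposited scanner files give an intensity per spot, read per the file headers with Feature Extraction 10.7.1.1 (slide 1) and 10.7.3.1 (slide 2), with positions in mm9, and other columns flag spots above background, saturated spots and outliers. The authors' deposited series values matched these signals in rank (Spearman's rho at least 0.999) and were read as log2 values. Their normalization is unknown, and the submitters' processing notes name limma.

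Log2 signals were centred on each array's 75th percentile over 43379 of 45018 spots, without controls and flagged outliers. The probe with the highest mean stood for a gene, and a gene was tested where 2 or more of 6 arrays were well above background. Of 41174 probes 27668 were named by accession, 6060 by symbol or synonym among RefSeq genes, and 7446 by the file. Where a probe was below background on every array of a group, a bound is given against the detection limit, the lowest signal of any probe well above background on that array. The probe's own signal was used where it was higher. This limit is taken over all probes, so a probe could lie above it and still not be well above background. A bound holds for the main scaling only, and with normexp the differences of Clec4d and Ngp fell below theirs.

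Group means were fitted with limma 3.58.1 (R 4.3.3; tables were read by data.table, release 1.17.8), two-sided, with Benjamini-Hochberg adjustment over all genes and 2 residual degrees of freedom, so that a single deficient array takes the spread of the wild-type arrays. Injury over both genotypes came from an additive fit (3 residual degrees of freedom). The p-values rest on the spread between these samples alone, which may be technical for the wild-type sham arrays. Between the wild-type injured arrays it also holds the difference in Xist and Y-linked signals. Data for 6 arrays (19617 genes) were simulated from each gene's mean over the 6 arrays, with normal noise whose SDs were shuffled among genes. Changes were added to the wild-type injured arrays only. In wild-type injury limma then found 23 of 50 genes changed by 4 log2 units, 30 of 50 changed by 6, and 0 of 50 changed by 1 or by 2.

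The 10 genes and the lists set beside them were chosen with earlier results of these data known. Genes named from a list had its largest differences in wild-type or deficient injury, and Y-linked genes and Xist were added as a check of labels. Genes of similar signal are the 8 with the highest Pearson r among genes above background on at least 4 arrays and with a range of at least 2 log2 units. Correlations between whole arrays were 0.953 to 0.983, and 0 of 15 pairs of arrays were identical.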

Additional observations from a re-analysis of the deposited data

Results flagged for a closer look

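In 5 of the genes examined both wild-type pairs of arrays moved up with injury while the single Gpr97-deficient pair moved down. The injury difference of the deficient pair minus that of wild type was -4.16 for S100a8 (SE 0.98), -3.76 for S100a9 (SE 0.92) and -3.19 for Retnlg (SE 1.18). It was -4.12 for Tpx2 (SE 1.21), a spindle assembly factor of the proliferation list, and -1.38 for Adgrg3 (SE 0.41). For Adgrg3 the deficient arrays were near the detection limit, so its value there is close to background. Tested over all genes with limma, this difference was called for 0 of 19625 genes (123 higher and 170 lower at an unadjusted p under 0.05). The deficient pair has 1 array per condition, and the alarmins were chosen for this pattern.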

How the results depend on the processing

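S100a8, S100a9 and Retnlg kept their sign in all 14 alternatives tried for wild-type injury, with ranges of 2.21 to 3.61, 2.08 to 3.35 and 2.14 to 3.70, and in all 12 tried for injury in Gpr97 deficiency. For the difference between genotypes after injury their sign turned in 1 of 13, without wild-type injured array 2. On the deficient sham array against wild type S100a8, S100a9, Retnlg, Clec4d, Camp, Ngp and Ltf kept their sign in all 13 alternatives tried, with lowest values of 4.12, 4.06, 2.56, 0.27, 1.55, 1.99 and 1.77 and highest values of 4.80, 4.60, 4.27, 2.05, 3.79, 5.55 and 4.05. Apart from S100a9 the lowest value came with normexp. The median of S100a8, S100a9, Retnlg and Clec4d in wild-type injury was 2.92, and between 2.17 (without wild-type injured array 1) and 3.48 when 1 array was left out. The median of Camp, Ngp, Ltf, Mpo and Elane, which was dim on every array, was -0.26 in wild-type injury and 1.16 with normexp background correction, and -3.63 in injury of the deficient pair and -2.02 with normexp. In wild-type injury the median of all genes was 0.28 with normexp and -0.05 without it, and the cause was not tested. With a variance trend and robust prior limma called 1 gene between genotypes after injury (Adgrg3) and 3 for injury over both genotypes (Sprr2f, Col3a1 and Mmp7). Quantile normalization, the deposited values and slide as a block each called 1 gene for injury over both genotypes (Sprr2f). The genes at least 2-fold higher in both wild-type pairs numbered 378, and 1153 to 1209 with 1 pair only, alternatives added after the data were seen, since a single pair sets fewer conditions. Members met that rule 4 times with the pair on slide 1 and 5 times, with Ngp, on slide 2. Against wild-type sham array 1 in place of array 2, 40 genes rather than 31 were at least 16-fold higher on the deficient sham array. No paired analysis was possible because the labels give the groups no shared replicate numbers by which to pair them. Arrays were set in pairs by slide instead, and slide as a block is the fit of those pairs. Signals near background limit Camp, Ngp, Ltf and Clec4d, and the detection limit was higher on slide 1.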

Other observations

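Markers of macrophages and monocytes were set beside the alarmins. Cd68, a lysosomal protein of macrophages, was 2.40 higher after injury in wild type (SE 0.49) and 2.68 higher in the Gpr97-deficient pair, and on the deficient sham array it lay 0.14 above the wild-type sham mean (SE 0.61). F13a1, a coagulation factor subunit of monocytes and macrophages, was 2.71 higher after injury in wild type (SE 0.43) and 1.90 higher in the deficient pair. Cd163, a haemoglobin scavenger receptor of macrophages, differed by -0.18 in wild-type injury (SE 0.27), or 0.01 without wild-type injured array 1, and by 1.45 in the deficient pair. Of 9 macrophage genes 5 were higher in wild-type injury and 6 in the deficient pair, with medians of 0.10 (-0.07 without wild-type injured array 1) and 0.07, and limma called 0 of them (1 and 2 higher at an unadjusted p under 0.05). On the deficient sham array 8 of the 9 lay above the wild-type sham mean, with a median of 0.32, and on the deficient injured array all 9 lay above the wild-type injured mean, with a median of 0.53 (0.15 and 0.14 with normexp). Of 8 monocyte genes 6 were higher on the deficient sham array, with a median of 0.30 (0.03 with normexp). T and NK cell genes were lower after injury in 10 of 11 cases in wild type, with a median of -0.88 that turned to 0.69 with normexp, and in 10 of 11 in the deficient pair, with a median of -0.52.

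Mcpt8, a basophil protease, was at least 5.75-fold lower after injury in the Gpr97-deficient pair, and the sham array of that pair was 1 of 2 arrays where it was well above background. Medians of the B cell list were -0.49 in wild-type injury (0.71 with normexp, -1.46 without wild-type injured array 1) and -0.26 in the deficient pair, and those of the eosinophil, mast cell and basophil list were 0.00 in wild-type injury (0.93 with normexp, -0.49 without wild-type injured array 1) and -0.74 in the deficient pair (-0.18 with normexp).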
